A study of Mus musculus with 56 samples.

Results

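The genes described here encode the proteins that make microRNAs and put them to use, and were taken by name from the RNA-seq table: Dgcr8, Xpo5, Dicer1, Tarbp2, Eif2c1, Eif2c2, Eif2c3, Tnrc6a, Tnrc6b and Tnrc6c. All 10 were present among the 21888 gene symbols of the table, which uses the older names Eif2c1, Eif2c2 and Eif2c3 for the Argonaute genes Ago1, Ago2 and Ago3. Poly-A RNA was sequenced from 14 livers of the 129Sv/J strain background, each library from 1 mouse. Mice carrying LoxP sites around miR-122 were left uninjected (day 0, n = 3) or were harvested 21 days (n = 3), 45 days (n = 3), 100 days (n = 1) and 200 days (n = 1) after an rAAV8 vector in which the Ef1a promoter drives Cre, and the 2 late mice were joined as 1 group. A further group held germline miR-122 knockout mice (n = 3), which lack the microRNA in every cell and from before birth and are not labelled as floxed. The study describes the injected floxed mice as adult. Exact ages, the age of the knockout mice and the sexes were not given in the sources used here. The comparisons with day 0 share the same 3 uninjected mice, and mice given a vector without Cre were not analysed here, so excision, vector and time after injection cannot be told apart.

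microRNAs are cut from long primary transcripts in the nucleus by the Microprocessor, in which the RNase III enzyme Drosha works with the RNA-binding protein Dgcr8. The hairpin that is released is carried to the cytoplasm by exportin 5, the product of Xpo5, and is cut a second time by Dicer1 together with its double-stranded RNA-binding partner Tarbp2. The mature strand is then loaded into an Argonaute protein, and Argonaute recruits a GW182 protein, encoded by Tnrc6a, Tnrc6b or Tnrc6c, which brings in the enzymes that remove the poly-A tail and silence the mRNA. miR-122 is the most abundant microRNA of hepatocytes and is made along this general route, which a few other microRNAs bypass in part. The comparisons address whether the mRNAs of these proteins change when miR-122 is lowered or absent.

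In the small RNA libraries of the same study, miR-122 held between 59.2% and 73.3% of the listed microRNA reads at day 0, between 8.22% and 13.2% at day 21 and between 0.383% and 1.23% at day 45. It held 4.46% in the mouse of day 100 and 19.1% in the mouse of day 200. No small RNA library of the germline knockout was analysed here. Aldoa, a known miR-122 target, read between 62.1 and 73.1 FPKM (fragments per kilobase of transcript, scaled to library depth) at day 0 and 500, 440 and 245 FPKM in knockout mice A, B and C, so that every knockout library lay above every day 0 library.

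Knockout libraries A and B stood apart from knockout library C before any member was considered. Across the 11354 tested genes the correlation of log2(FPKM + 1) was 0.986 between A and B but 0.881 and 0.896 between each of them and C, against 0.956 to 0.981 within the other groups of 3. The median difference of A and B from C ran from -0.95 on the log2 scale in the lowest of 5 equal classes of transcript GC content to 0.75 in the highest, and from 0.45 in the shortest of 5 length classes to -0.47 in the longest. Effective depth, estimated from the FPKM step of 1 fragment, was 24000000 to 30700000 fragments in the knockout and 36100000 to 55900000 in the other groups. The knockout FPKM of the members, of Drosha and of the other pathway genes called in the knockout are therefore given for the 3 mice separately, and the 3 libraries are plotted against GC content further on.

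At day 0 the members were expressed at low to middling levels, and since FPKM are per length the genes can be set in order. Xpo5 was highest with 6.75 ± 1.17 FPKM (SD, n = 3), followed by Tnrc6a with 6.44 ± 0.765, Eif2c1 with 5.62 ± 0.886 and Dicer1 with 5.55 ± 1.03 FPKM. The day 0 ranges of these 4 genes overlapped from each neighbour to the next, so that their order was not resolved. Dgcr8 with 3.23 ± 0.349, Tarbp2 with 2.70 ± 0.169, Tnrc6b with 2.36 ± 0.732, Eif2c2 with 1.92 ± 0.578 and Tnrc6c with 1.88 ± 0.121 FPKM formed a second set that overlapped in the same way and lay below all 3 Dicer1 values. Eif2c3 was lowest with 0.862 ± 0.389 FPKM. Among the tested genes the level of Xpo5 stood at the 48.5th percentile and that of Tnrc6c at the 18.6th.

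**Figure D1:**
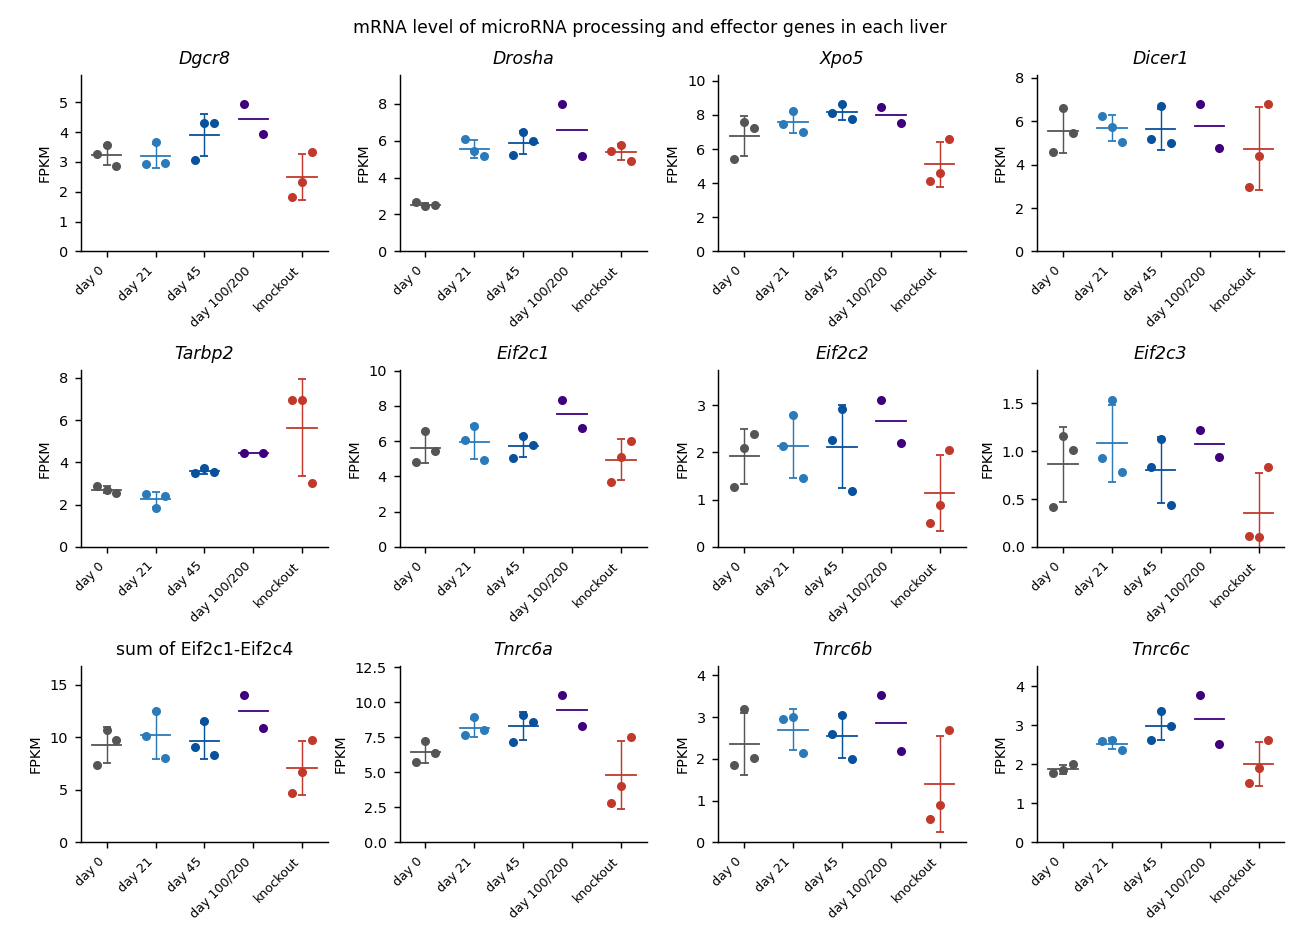
FPKM (vertical axis, linear and from 0) of the 10 members, of Drosha and of the summed Argonaute genes in each of the 14 livers by group (horizontal axis); dots are mice, horizontal lines group means and vertical bars SD for the groups of 3. Drosha read 2.49 to 2.65 at day 0 and 4.92 to 7.98 in every other liver, while Dicer1 stayed between 2.99 and 6.79 throughout.

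Of the 9 members whose mean reached 1 FPKM and could be tested, few passed an adjusted p of 0.05 in limma (Benjamini-Hochberg over all 11354 tested genes). At day 21 limma called 0 of the 9, against 7.62% of all tested genes (6.20% higher and 1.42% lower), and 0 reached an unadjusted p of 0.05. At day 45 Tnrc6c alone was called, against 26.7% of all tested genes (23.7% higher and 2.99% lower), and at days 100 and 200 again Tnrc6c alone, against 31.6% (28.4% higher and 3.21% lower). In the knockout Tarbp2 alone was called, against 33.8% of all tested genes (19.3% higher and 14.5% lower). At days 100 and 200 a second member, Tarbp2, reached an unadjusted p of 0.05 without passing the adjustment. An unadjusted p under 0.05 was held by 0, 1, 2 and 1 members in the order day 21, day 45, late mice and knockout, and by 21.7%, 37.3%, 41.4% and 47.3% of all tested genes. The whole distribution moved as well, since the median log2 change of all tested genes was 0.06, 0.20, 0.31 and 0.02 in the order day 21, day 45, late mice and knockout. The median over the 9 members was 0.10, 0.20, 0.36 and -0.30 in the same order, so that after excision it lay close to the median of all genes and in the knockout below it. With knockout C as the only knockout library Dicer1, Dgcr8, Tnrc6a, Tnrc6b, Eif2c1 and Eif2c2 turned positive (0.042 to 0.26), while Xpo5 kept its sign. The negative median in the knockout therefore rests on libraries A and B.

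**Figure D2:**
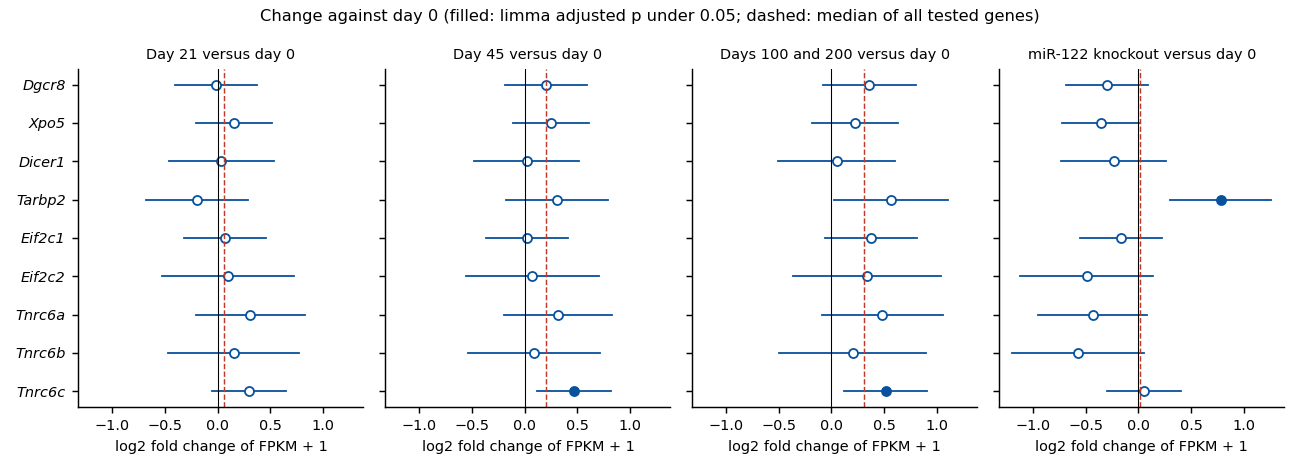
log2 fold change of FPKM + 1 against day 0 (horizontal axis) of the 9 tested members (vertical axis) in the 4 comparisons with day 0; dots are limma estimates, bars 95% confidence intervals, filled dots an adjusted p under 0.05 and the dashed line the median of all tested genes. Only Tnrc6c at day 45 and at days 100 and 200 and Tarbp2 in the knockout are filled.

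Dgcr8, the RNA-binding subunit of the Microprocessor, lies on the minus strand at chr16:18254057-18289261 of mm9. It read 3.26, 3.57 and 2.87 FPKM at day 0, 2.94, 3.68 and 2.97 at day 21, and 3.08, 4.31 and 4.32 at day 45. The late mice read 4.94 at day 100 and 3.94 at day 200, and knockout mice A, B and C read 1.81, 2.32 and 3.35. The late values lay above all day 0 values, the day 21 and day 45 values overlapped them, and of the knockout libraries only C fell inside the day 0 range. Day 21 gave a log2 fold change of -0.01, day 45 one of 0.20 and the late mice one of 0.36 (95% confidence interval -0.08 to 0.80), with an adjusted p of 0.20 in the last of these. Centred on the median of each library the day 45 value was -0.03. In the knockout it was -0.30 (-0.69 to 0.09), with an adjusted p of 0.21.

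Drosha, the catalytic subunit of the same complex, was not among the 10 genes and belongs to the list of other nuclear processing and export genes; it is given here as the partner of Dgcr8. It read 2.65, 2.49 and 2.49 FPKM at day 0, 6.11, 5.44 and 5.16 at day 21, and 5.24, 6.46 and 5.96 at day 45. It read 7.98 at day 100, 5.19 at day 200, and 5.41, 5.77 and 4.92 in knockout mice A, B and C. The day 0 values were close to each other and every other liver exceeded the highest of them. The gene lies on the plus strand at chr15:12754569-12865046 of mm9, and its transcript of 4570 nucleotides has a GC content of 51.9%, and knockout C was the lowest of the 11 libraries outside day 0.

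Drosha rose at day 21 by a log2 fold change of 0.89 (95% confidence interval 0.56 to 1.21, limma adjusted p = 0.0057), at day 45 by 0.96 (0.63 to 1.28, adjusted p = 0.0011) and at days 100 and 200 by 1.07 (0.71 to 1.44, adjusted p = 5.8e-04). In the knockout it rose by 0.84 (0.52 to 1.17, adjusted p = 0.0021). On the scale of FPKM + 1 these are factors of 1.85, 1.94, 2.11 and 1.80. Called higher were 6.20%, 23.7%, 28.4% and 19.3% of all tested genes in the same order. By log2 fold change Drosha ranked 659, 1524, 1760 and 1488 among the 11354 tested genes, counted from the largest rise. Between day 45 and day 21 the change was 0.07 (-0.26 to 0.39) and between the knockout and day 45 -0.11 (-0.44 to 0.21), neither of which passed the test (adjusted p = 0.91 and 0.62). With each library centred on its median the rise at day 45 was 0.72 and in the knockout 0.82, and both were called. After correction for GC content and length the rise of Drosha was 0.70 at day 21, 0.59 at day 45, 0.61 in the late mice and 0.69 in the knockout, each called (adjusted p = 0.0032, 0.0025, 0.0028 and 9.3e-04). With knockout A and B not in the fit, knockout C alone gave 0.74 with an adjusted p of 0.055. In this fit, as in any that leaves a group with 1 library, the spread comes from the other groups and the lone library is assumed to vary like them.

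**Figure D3:**
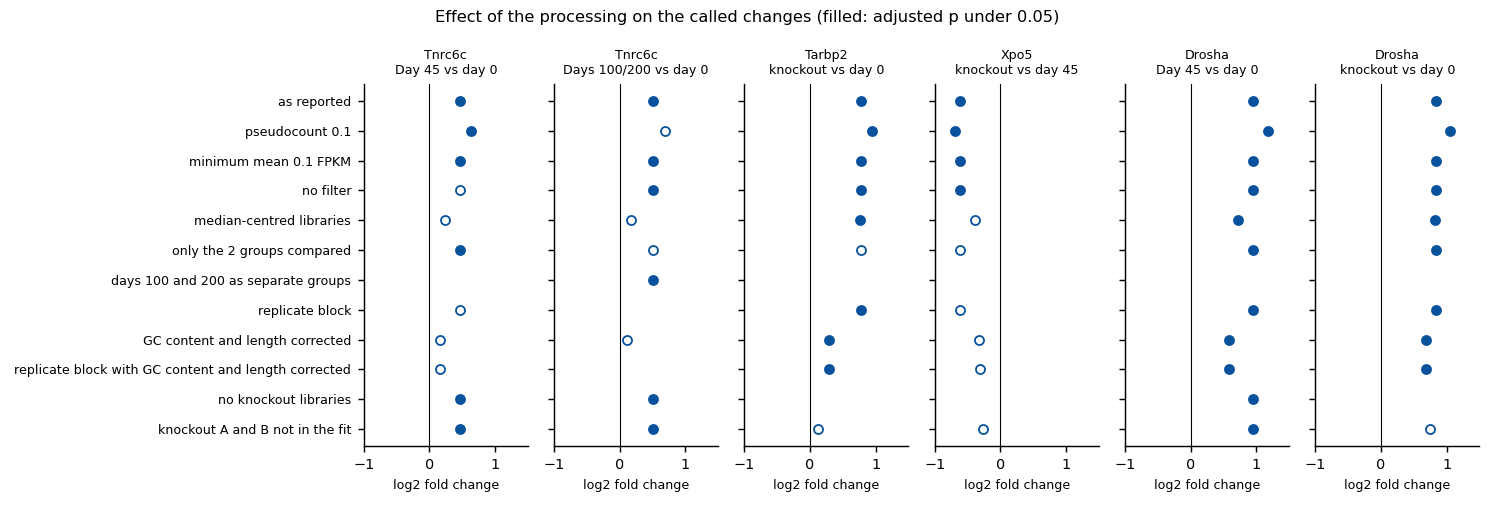
log2 fold change (horizontal axis) of the called members and of Drosha under each processing setting (vertical axis); filled dots have a limma adjusted p under 0.05, and a missing dot means the setting was not run for that comparison. Drosha stays filled at day 45 in every setting shown and loses the call in the knockout only with knockout A and B not in the fit, whereas Tnrc6c, Tarbp2 and Xpo5 each lose it in 2 settings or more.

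Xpo5, the exporter of microRNA hairpins, lies on the plus strand at chr17:46339803-46379248. It read 5.42, 7.61 and 7.22 FPKM at day 0, 7.46, 8.24 and 7.02 at day 21, and 8.09, 8.64 and 7.75 at day 45. The late mice read 8.48 and 7.50, and knockout mice A, B and C read 4.11, 4.60 and 6.58. All day 45 values lay above day 0, by a small margin, and knockout A and B lay below every other library. Against day 0 day 21 gave 0.15, day 45 gave 0.25 (-0.11 to 0.61) and the late mice gave 0.22 (-0.18 to 0.63) on the log2 scale, with adjusted p of 0.67, 0.32 and 0.40. In the knockout it was -0.36 (-0.72 to 0.01) with an adjusted p of 0.11.

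Between the knockout and day 45 Xpo5 differed by -0.61 (-0.97 to -0.24, adjusted p = 0.043), and the knockout values did not overlap the day 45 values. It was the only 1 of the 9 members called in that comparison, against 9.44% of all tested genes (1.21% higher and 8.23% lower). At an unadjusted p under 0.05 there were 5 members, all lower, namely Xpo5, Dgcr8 (-0.50), Tnrc6a (-0.75), Tnrc6b (-0.66) and Tnrc6c (-0.42), beside 36.4% of all tested genes (31.9% lower). Xpo5 and Tnrc6c lay wholly below day 45, as 20.6% of tested genes did, and 0 members lay wholly above, as 3.29% did. The Xpo5 difference was -0.39 with an adjusted p of 0.14 after median centring, where all genes together had moved by -0.23, and -0.33 with an adjusted p of 0.079 after correction for GC content and length. It was -0.27 with an adjusted p of 0.45 for knockout C alone, and of the 14 fits without 1 library only those without day 0 A or knockout C kept the call. With the replicate letter as a block it had an adjusted p of 0.074. No member was called between day 45 and day 21, where 0.273% of all tested genes were (0.273% higher and 0.0% lower), or between the late mice and day 45, where 0.220% were (0.194% higher and 0.0264% lower). Same-letter libraries of days 21 and 45 deviated together from their group means. With the replicate letter as a block 1 gene was called between these days in place of 31. That fit left out the late mice and gave day 0, day 21, day 45 and the knockout the same letter effects. The effect of pairing days 21 and 45 alone was not tested. No member was called with the block, and Tarbp2 had an adjusted p of 0.38. Without the block Tarbp2 alone reached an unadjusted p of 0.05 between these days and 0 members did between the late mice and day 45, beside 16.0% and 7.84% of all tested genes. Tarbp2 and Tnrc6c lay wholly above day 21 at day 45, as 27.9% of tested genes did (2.85% wholly below), and Tarbp2 and Eif2c1 wholly above day 45 in the late mice, as 23.7% did (7.59% wholly below).

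Dicer1, which cuts the hairpin to its mature length, lies on the minus strand at chr12:105925951-105990162. It read 4.58, 6.63 and 5.43 FPKM at day 0, 6.23, 5.75 and 5.05 at day 21, 5.18, 6.70 and 4.99 at day 45, and 6.79 and 4.79 in the mice of days 100 and 200. Knockout mice A, B and C read 2.99, 4.41 and 6.79. The values after excision lay inside the day 0 range or just above its upper end, whereas knockout A was the lowest and knockout C almost the highest of the 14 libraries. Day 21 gave a log2 fold change of 0.04 (-0.46 to 0.53), day 45 one of 0.02 (-0.48 to 0.51) and the late mice one of 0.05 (-0.51 to 0.60). The knockout gave -0.23 (-0.73 to 0.26), and the adjusted p in the 4 comparisons ran from 0.43 to 0.97. The day 45 interval corresponds to factors of 0.719 to 1.43 on the scale of FPKM + 1. Relative to the median of each library the Dicer1 change turned negative, -0.22 at day 45 and -0.29 at days 100 and 200, without passing the test, and after correction for GC content and length it was -0.27 at days 100 and 200 with an adjusted p of 0.033.

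Dicer1 is a member whose own mRNA carries matches to a remaining liver microRNA, and its sites are shown because microRNAs of the let-7 family share the equipment with miR-122. The mature let-7a-5p of RefSeq (GRCm38.p6) is printed 5′ to 3′ with its seed, bases 2 to 8, in capitals, followed by the 4 places in the Dicer1 coding sequence (GENCODE transcript on mm9, mRNA strand) that hold CTACCTC, the complement of the seed, in capitals.
mmu-let-7a-5p: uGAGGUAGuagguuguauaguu
Dicer1 chr12:105944762-105944784: actgtgttCTACCTCttaatgtt
Dicer1 chr12:105941007-105941029: acaaccaaCTACCTCatatccca
Dicer1 chr12:105940899-105940921: taacacatCTACCTCagatggaa
Dicer1 chr12:105932899-105932921: attttggaCTACCTCataaccaa
At least 1 such match stood in the first 5751 coding bases of 35.9% of the 487 genes with a coding sequence that long, the length of the Dicer1 coding sequence, and at least 4 stood in 0.616% of them. The Dicer1 3′ untranslated region of 3851 bases held 0. Only the mRNA strand was searched, and a match is a description of letters, not of a site in use.

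Tarbp2, the binding partner of Dicer, lies on the plus strand at chr15:102348676-102354107. It read 2.88, 2.68 and 2.54 FPKM at day 0, 2.48, 1.85 and 2.41 at day 21, and 3.48, 3.75 and 3.52 at day 45. The mice of days 100 and 200 read 4.45 and 4.46, and knockout mice A, B and C read 6.96, 6.97 and 3.01. The 3 day 21 values lay below day 0 and all later and knockout values above it, with knockout C only just outside. On the log2 scale day 21 gave -0.19 (-0.67 to 0.29), day 45 gave 0.31 (-0.17 to 0.79) and the late mice gave 0.56 (0.02 to 1.10), with adjusted p of 0.70, 0.35 and 0.11.

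In the knockout Tarbp2 rose by 0.78 (0.30 to 1.26, limma adjusted p = 0.020), a factor of 1.71 on the scale of FPKM + 1, beside 19.3% of all tested genes that were called higher. Knockout C was far below A and B. With A and B not in the fit the knockout group was C alone and its change was 0.12 (adjusted p = 0.70), where C is assumed to vary like the mice of the other groups. Tarbp2 has the highest GC content of the members, 57.5%, and the shortest transcript, 1523 nucleotides, and the class of genes with its GC content differed by 0.75 between A and B and C where Tarbp2 differed by 0.99. After correction for GC content and length the rise was 0.28 (adjusted p = 0.026), and with only day 0 and the knockout in the fit 0.78 was not called (adjusted p = 0.13). Without knockout A or B it was 0.61 in either case (adjusted p = 0.087 and 0.098), without knockout C 1.11, and without day 0 B or C it was 0.77 and 0.75 with adjusted p of 0.057 and 0.058. The value rests on an estimated 114 to 288 fragments of Tarbp2 per library.

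The Tarbp2 values after excision also depended on which libraries set the spread. With no knockout libraries in the fit Tarbp2 was called at day 45 (0.31, adjusted p = 0.041), at days 100 and 200 (0.56, adjusted p = 0.0035) and between day 45 and day 21 (0.50, adjusted p = 0.031). Centred on the median the change at days 100 and 200 was 0.22 with an adjusted p of 0.58, and corrected for GC content and length 0.13 with an adjusted p of 0.33. The 3′ untranslated region of Tarbp2, 334 bases long, holds 1 match to the let-7 seed, which 2.24% of the 13446 genes hold in their first 334 bases:
Tarbp2 chr15:102353867-102353889: tgccatctCTACCTCtgacacag

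**Figure D4:**
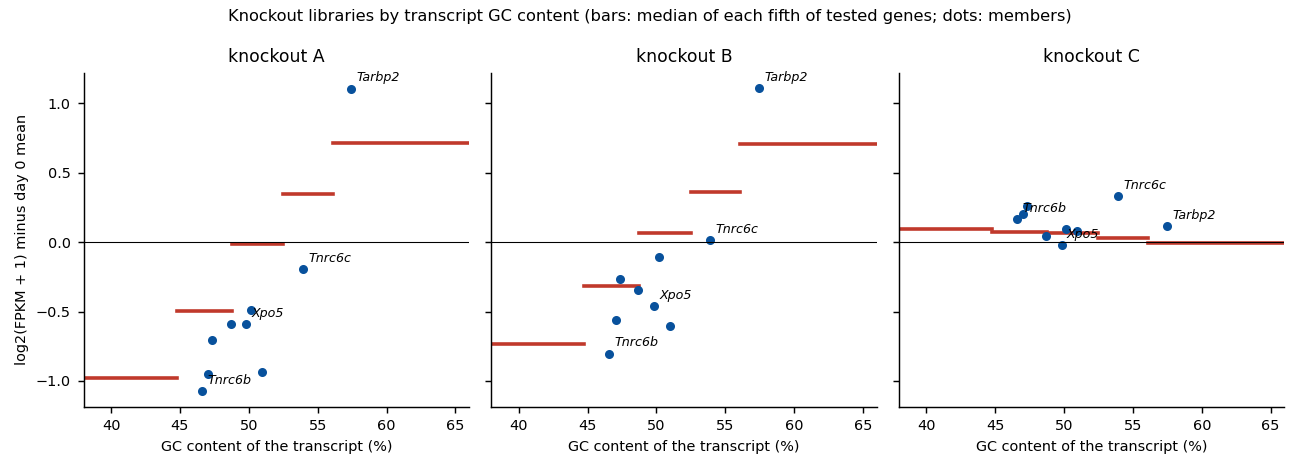
log2(FPKM + 1) minus the day 0 mean (vertical axis) against transcript GC content in percent (horizontal axis) in knockout libraries A, B and C; bars are medians of the 5 GC classes of tested genes and dots the 9 tested members. In A and B the medians climb from -0.98 and -0.73 to 0.72 and 0.70 and Tarbp2 is the highest member, while in C the medians stay between -0.0044 and 0.097.

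The Argonaute genes were led by Eif2c1, whose share of the summed FPKM of Eif2c1, Eif2c2, Eif2c3 and Eif2c4 was 55.9% to 65.9% at day 0. Argonaute proteins hold the mature microRNA, and that of Eif2c2 is the one that can cut its target. The sum itself was 7.34, 9.74 and 10.7 FPKM at day 0 in order of size, 8.06 to 12.6 at day 21, 8.29 to 11.6 at day 45, 10.9 and 14.0 in the late mice, and 4.75, 6.75 and 9.81 in knockout A, B and C. Only the 2 late mice lay wholly above day 0.

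Eif2c1, at chr4:126112256-126145665 on the minus strand, read 4.84, 6.59 and 5.45 FPKM at day 0, 6.09, 6.85 and 4.93 at day 21, 5.05, 6.27 and 5.80 at day 45, 8.36 and 6.75 in the late mice, and 3.70, 5.10 and 6.03 in knockout A, B and C. Groups overlapped with day 0 except the late one. The log2 fold changes were 0.07, 0.02, 0.37 and -0.17 in the order day 21, day 45, late and knockout, with adjusted p of 0.89, 0.96, 0.19 and 0.48. The day 45 interval ran from -0.37 to 0.41.

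Eif2c2, at chr15:72932054-73015377 on the minus strand, read 1.28, 2.09 and 2.40 FPKM at day 0, 2.14, 2.80 and 1.46 at day 21, 2.26, 2.92 and 1.18 at day 45, 3.12 and 2.201 in the late mice, and 0.504, 0.892 and 2.04 in knockout A, B and C. Every group overlapped with day 0, and knockout A and B were the lowest libraries. The log2 fold changes were 0.10, 0.07, 0.33 and -0.49 in the same order, with adjusted p of 0.91, 0.90, 0.47 and 0.20. The intervals were among the widest of the members, -0.56 to 0.70 at day 45 and -1.12 to 0.14 in the knockout, so that changes of that size could not be seen.

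Eif2c3, at chr4:126017921-126106786 on the minus strand, had a mean of 0.818 FPKM over the 14 libraries and was in no fit. It read 0.420, 1.15 and 1.01 FPKM at day 0, 0.927, 1.54 and 0.779 at day 21, 0.840, 1.12 and 0.439 at day 45, 1.22 and 0.940 in the late mice, and 0.113, 0.106 and 0.835 in knockout A, B and C. Knockout A and B were lowest by a wide margin, and otherwise the groups overlapped. An exact two-sided permutation test on log2(FPKM + 1) gave p = 0.6 at day 21, p = 0.8 at day 45 and p = 0.2 in the knockout (n = 3 in each group), where 0.1 is the smallest p such a design allows. Eif2c3 has the lowest GC content of the members, 41.8%, and knockout A and B hold an estimated 41.8 and 50.2 of its fragments.

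The GW182 genes are the last step of the chain and the place where 1 member was called after excision. Tnrc6a, at chr7:130267398-130338810 on the plus strand, made up 57.7% to 63.9% of their summed FPKM in the 14 livers. It read 5.71, 7.24 and 6.36 FPKM at day 0, 7.69, 8.92 and 7.99 at day 21, 7.16, 9.08 and 8.59 at day 45, 10.5 and 8.32 in the late mice, and 2.85, 4.03 and 7.54 in knockout A, B and C. The day 21 and late values lay above all day 0 values, day 45 overlapped by 1 mouse, and knockout A and B were lowest. Day 21 gave a log2 fold change of 0.31, day 45 one of 0.32 and the late mice one of 0.48 (-0.09 to 1.06), with adjusted p of 0.51, 0.38 and 0.19, and -0.43 in the knockout with an adjusted p of 0.16.

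Tnrc6b, at chr15:80541742-80771516 on the plus strand, read 1.85, 3.20 and 2.03 FPKM at day 0, 2.95, 3.01 and 2.14 at day 21, 2.60, 3.05 and 2.01 at day 45, 3.53 and 2.19 in the late mice, and 0.570, 0.896 and 2.71 in knockout A, B and C. All groups overlapped with day 0, and again knockout A and B were lowest. The log2 fold changes were 0.15, 0.09, 0.20 and -0.57 in the order day 21, day 45, late and knockout, with adjusted p of 0.83, 0.87, 0.68 and 0.13.

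Tnrc6c, at chr11:117515602-117624753 on the plus strand, read 1.77, 1.85 and 2.01 FPKM at day 0, 2.61, 2.62 and 2.38 at day 21, and 2.62, 3.36 and 2.99 at day 45. It read 3.78 at day 100, 2.53 at day 200, and 1.51, 1.90 and 2.62 in knockout A, B and C. No library after excision overlapped with day 0, whereas the knockout libraries lay below, inside and above the day 0 range. Lying wholly above day 0 was common, holding for 25.2% of all tested genes at day 21 and 40.5% at day 45, and 2 and 3 members did so: Tnrc6a and Tnrc6c at day 21, and Xpo5, Tarbp2 and Tnrc6c at day 45. In the late mice, where 52.9% of tested genes lay wholly above day 0, 5 members did: Dgcr8, Tarbp2, Tnrc6a, Tnrc6c and Eif2c1. In the knockout Tarbp2 did, beside 21.1% of tested genes. Wholly below day 0 lay Tarbp2 at day 21, beside 13.1% of tested genes, and 0 members at day 45, in the late mice and in the knockout, beside 9.37%, 11.6% and 13.3%.

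Tnrc6c was higher by a log2 fold change of 0.30 at day 21 (-0.05 to 0.65, limma adjusted p = 0.32), by 0.47 at day 45 (0.12 to 0.82, adjusted p = 0.048) and by 0.51 at days 100 and 200 (0.12 to 0.91, adjusted p = 0.046), while the knockout gave 0.05 (-0.30 to 0.40, adjusted p = 0.82). Called higher were 23.7% of all tested genes at day 45 and 28.4% at days 100 and 200. After median centring the Tnrc6c changes were 0.23 (adjusted p = 0.25) and 0.18 (adjusted p = 0.44), and after correction for GC content and length 0.16 and 0.10 with adjusted p of 0.38 and 0.61. Of the 14 fits that each left out 1 library, 4 kept the day 45 call (without the mouse of day 100, that of day 200, knockout A or knockout C) and 3 the late call (without the mouse of day 200, knockout A or knockout C). With the replicate letter as a block, in a fit that also left out the late mice, the day 45 call was lost (limma adjusted p = 0.057). Leaving out either late mouse leaves a group of 1, which is assumed to vary like the other groups. Without the mouse of day 100 the late change was 0.30 with an adjusted p of 0.44, and without that of day 200 it was 0.73 with an adjusted p of 0.030.

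Tnrc6a and Tnrc6c hold matches to the seed of miR-30a-5p, another abundant liver microRNA, in their 3′ untranslated regions. They are shown because 3 of them stand within the first 1000 bases in Tnrc6a; the microRNA (RefSeq, GRCm38.p6) is printed with its seed in capitals and the mm9 sites with TGTTTAC, its complement, in capitals.
mmu-miR-30a-5p: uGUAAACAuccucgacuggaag
Tnrc6a chr7:130336891-130336913: agtgtagaTGTTTACtcaagggt
Tnrc6a chr7:130337179-130337201: aaccttctTGTTTACagattttt
Tnrc6a chr7:130337218-130337240: aaaaaaaaTGTTTACtcttccat
Tnrc6c chr11:117623193-117623215: tgtgtaaaTGTTTACtcaaggac
Tnrc6c chr11:117623495-117623517: ctcccaccTGTTTACagactttt
Matches were counted for 3 microRNAs in 10 genes and those shown, here and for let-7a in Dicer1 and Tarbp2, were chosen after the counts were seen, so the shares of all genes belong to matches picked among them. Over the whole 3′ untranslated region Tnrc6a holds 4 matches to the miR-30a seed, Tnrc6b, Eif2c2 and Eif2c3 hold 3 each, and Eif2c1 holds 1. At least 3 matches in the first 1000 bases were found in 0.0261% of the 7655 genes with a 3′ untranslated region that long, which is 2 genes, and at least 1 in 10.2%. At least 2 in 2588 bases, the length of the Tnrc6c region, were found in 4.88% of 2173 genes.

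The 3 tested genes whose course over the 14 libraries was most like that of Tnrc6c, by root mean square difference of log2(FPKM + 1) centred on day 0, were Kif2a (0.08), Vps39 (0.08) and Wdr47 (0.09), where the median over all tested genes was 0.49. For Tarbp2 they were Chmp6 (0.10), Ercc1 (0.10) and AI837181 (0.11), against a median of 0.65. Because these genes were picked as the closest, lying below the median was fixed by the choice. Ercc1, for example, read 8.97, 9.33 and 4.94 FPKM in knockout A, B and C after 3.55 to 3.86 at day 0, so that A and B stood above C there as they did for Tarbp2.

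Beyond the members, 62 other genes of the pathway were tested of 71 listed, of which day 21 had 1 call, day 45 had 8 and the late mice had 8, all of them higher, while the knockout had 10, 2 higher and 8 lower. These are 1.61%, 12.9%, 12.9% and 16.1% of the list, below the shares of all tested genes in each comparison. Among the 11 tested genes of nuclear processing and export, Drosha was the only call at days 21 and 45. Hnrnpa1, a splicing factor that also binds some primary microRNAs, joined it at days 100 and 200 with 0.79 (adjusted p = 0.049), from 3.64, 1.62 and 1.81 FPKM at day 0 to 6.94 and 2.96, so that the late mice overlapped with day 0. In the knockout Ncbp2, of the nuclear cap-binding complex, fell by 0.73, with 5.66, 5.91 and 12.5 FPKM in A, B and C, of which C lay inside the day 0 range. Hnrnpa2b1 fell by 0.68, with 67.3, 80.7 and 125 FPKM, of which C lay just below the day 0 range.

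Of the 16 tested Dicer partners and loading factors, Adar, the RNA-editing enzyme, was called at day 45 (0.56, adjusted p = 0.033), and none was called at day 21 or at days 100 and 200. In the knockout 1 was called higher, the chaperone gene Hsp90ab1 with 0.46 (adjusted p = 0.047, named after its value was seen) and 439, 402 and 368 FPKM in A, B and C above 283 to 308 at day 0, and 3 lower. Hspa8, the Hsc70 chaperone that helps to open Argonaute for loading, fell by 1.60 on the log2 scale (adjusted p = 3.1e-04), from 75.4 to 82.0 FPKM at day 0 to 32.9, 28.5 and 17.2 in knockout A, B and C. All 3 knockout mice were below every other library, and C was the lowest. Fxr1 fell by 0.85, with 12.9, 13.9 and 28.4 FPKM in A, B and C, and Ipo8 by 0.83, with 5.31, 7.46 and 10.9.

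Of the 16 tested genes of deadenylation and translational repression, 2 were called higher at day 45 and the same 2 at days 100 and 200. Eif4enif1, which ties the deadenylated mRNA to decay and storage, rose by 0.52 and 0.59 (adjusted p = 0.0077 and 0.0059), and Cnot10, a CCR4-NOT subunit, by 0.40 and 0.49 (adjusted p = 0.021 and 0.012). In the knockout Cnot6, a deadenylase of the same complex, fell by 1.16 with 1.71, 3.00 and 9.33 FPKM in A, B and C. Of these C lay inside the Cnot6 range of 7.03 to 11.8 at day 0. Pan2 fell by 0.44 in the knockout with 3.98, 4.35 and 4.67 FPKM in A, B and C. Of 9 tested decapping and decay genes, Edc3, an enhancer of decapping, rose at day 45 (0.47) and at days 100 and 200 (0.59), and the decapping activator Dcp1a at days 100 and 200 (0.48), with adjusted p of 0.021, 0.0093 and 0.040, and none was called at day 21 or in the knockout.

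Of the 10 tested genes of microRNA tailing, trimming and turnover, 3 rose at day 45, when 23.7% of all tested genes were called higher, so that their share was near the background. Zcchc11, a uridylyltransferase that adds U to microRNAs and their precursors, went from 3.26, 3.53 and 4.35 FPKM at day 0 to 9.10, 9.40 and 7.98, a log2 change of 1.06 (0.39 to 1.73, adjusted p = 0.023), and 0.83 with an adjusted p of 0.060 after median centring. The other two were 2310021P13Rik, the table's name for Zswim8, whose product serves in target-directed microRNA decay (0.49), and the poly-A polymerase Papd4 (0.46), and both were called at days 100 and 200 as well (0.55 and 0.47). After correction for GC content and length the 2310021P13Rik values were -0.02 and -0.07, so that its direction was not kept. In the knockout Pnpt1 fell by 1.30, with 1.95, 3.14 and 12.1 FPKM in A, B and C, of which C lay inside the day 0 range. The germ-line genes Piwil1, Piwil2 and Piwil4 never exceeded 0.094 FPKM and were not tested.

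Most of these pathway calls other than Drosha depended on the processing. Of the 14 at day 45 and in the late mice, all 14 were lost after median centring and 11 after correction for GC content and length. Of the 9 in the knockout, 1 (Hsp90ab1) was lost after centring, 2 after that correction, and 8 with knockout C as the only knockout library. With only the 2 groups compared, 2 of the 14 and 8 of the 9 were lost. With the replicate block, run without the late mice, 3 of the 7 at day 45 and 2 of the 9 in the knockout were lost. Hspa8 in the knockout was the 1 call of these 23 that was kept under every alternative run.

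**Figure D5:**
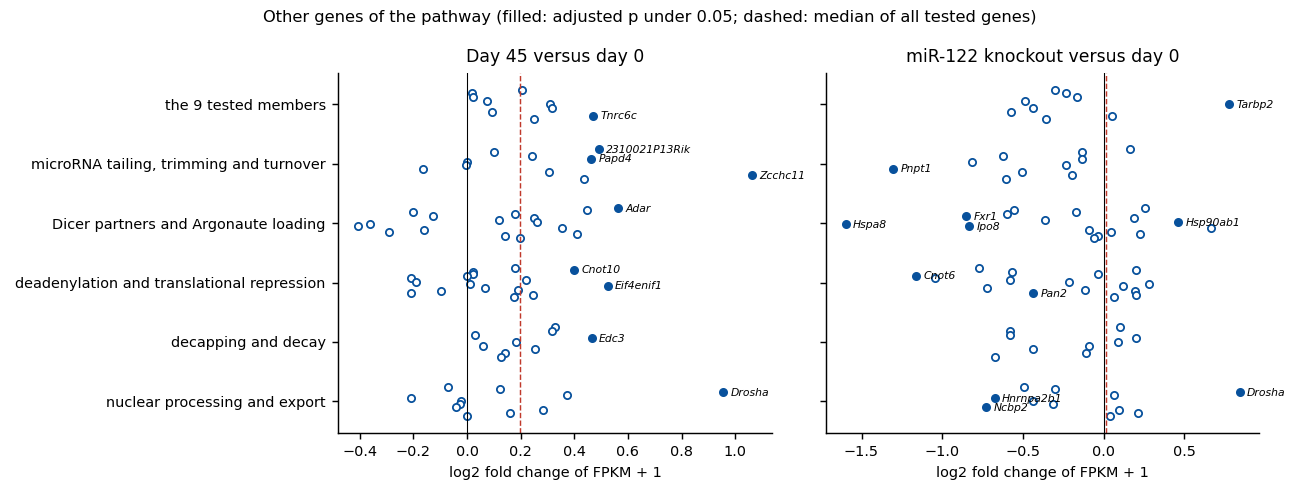
log2 fold change of FPKM + 1 (horizontal axis) of the 9 tested members and the 62 tested genes of 5 other lists (vertical axis) at day 45 and in the knockout against day 0; filled, named dots have a limma adjusted p under 0.05 and the dashed line is the median of all tested genes. At day 45 all 8 called genes outside the members lie to the right, with Zcchc11 and Drosha farthest.

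Markers of other cell types also changed in these comparisons. In whole liver a change in the number of cells of a type and a change in RNA per cell cannot be told apart. At day 21, when Drosha was already called, 7 of 8 lymphocyte markers, 2 of 5 cholangiocyte markers and 1 each of the macrophage, stellate cell and fibroblast, and endothelial markers were called higher. At day 45 all 8 macrophage, all 8 lymphocyte, all 7 stellate cell and fibroblast and all 5 cholangiocyte markers were called higher, as were 4 of 4 tested proliferation markers and 2 of 6 endothelial markers. In the late mice the counts were the same except for macrophage markers, with 5 of 8. In the knockout 4 of 8 macrophage, 4 of 8 lymphocyte, 5 of 7 stellate cell and fibroblast and 5 of 5 cholangiocyte markers were called higher. There 0 of 4 proliferation markers were called, and 1 of 6 endothelial markers was called lower. Summed macrophage markers were 191 to 332 FPKM at day 0, 465 to 594 at day 21, 669 to 781 at day 45, 820 and 970 in the late mice, and 700, 516 and 252 in knockout A, B and C. Summed cholangiocyte markers were 46.1 to 59.2 FPKM at day 0, 137 to 203 at day 21, 405 to 1330 at day 45, 1920 and 2920 in the late mice, and 556, 794 and 551 in knockout A, B and C. Summed lymphocyte markers were 5.18 to 12.4 FPKM at day 0 and 33.3 to 62.1 at day 21. None of the markers of these 6 lists was listed at 0 in any library. Of the 7 hepatocyte markers Alb was listed at 0 in all 14 libraries and Trf in 11, and of the 6 tested only Apoa1, lower at days 100 and 200, was called in a comparison with day 0. The median log2 change of these 6 was 0.11 at day 21, -0.31 at day 45, -0.56 in the late mice and -0.12 in the knockout. Without Alb and Trf the hepatocyte markers summed to 29312 to 32740 FPKM at day 0, and the sums after excision lay wholly below that, at 27365 to 29128 at day 21, 22128 to 27654 at day 45 and 16899 to 25552 in the late mice, whereas those of the knockout, 26714 to 31770, overlapped it. The lower sum at day 21 was not shared by all of these markers. Apoa1 read 6737 to 8212 FPKM there, after 11396 to 13489 at day 0. Cyp2e1 went the other way, with 5936 to 7614 after 4989 to 5449, and Ttr, Cps1 and Fgb overlapped with day 0.

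In knockout C the summed macrophage (252 FPKM) and proliferation markers (3.38) lay inside the day 0 range. Its cholangiocyte (551), stellate cell and fibroblast (38.3) and lymphocyte markers (13.8) lay above the highest day 0 sums of 59.2, 26.6 and 12.4, and its endothelial markers (78.0) below the lowest of 87.7. It read 4.92 FPKM of Drosha, above the highest day 0 value of 2.65. It read 2.62 FPKM of Tnrc6c, also above day 0, and 3.01 of Tarbp2. The part of other cell types in the changes of Drosha, Tnrc6c, Zcchc11 and the remaining called genes was not tested.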

How the data were processed

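The authors deposited FPKM values made with Cufflinks 2.2.1 (quartile normalization) from TopHat alignments of paired 101-base poly-A reads to mm9, and RPM values of microRNAs to which 1 had been added. The study's Cuffdiff comparison cannot be rerun on FPKM. Here rows with the same symbol were summed (224 symbols of 21888), and log2(FPKM + 1) of the 11354 symbols with a mean of at least 1 FPKM was fitted with limma 3.58.1 (mean-variance trend) in 1 fit of 5 groups, with Benjamini-Hochberg adjustment over all tested genes at 0.05 in 7 comparisons. Fold changes on this scale understate the change of low genes. Eif2c3, under the minimum, was given an exact permutation test. Depth was estimated from the FPKM step of 1 fragment with an assumed fragment length of 180 bases, and all intervals for single genes come from the spread between mice.

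The RPM values served only to give the share of miR-122 in 11 libraries. The members and gene lists were chosen with earlier results of these data known. Named pathway genes were those called in a comparison with day 0, at most 3 for each list and comparison by the size of the log2 fold change, and genes alike in course were the 3 closest to each member called against day 0. Alternatives were another pseudocount (0.1), other filters on low values, median centring, only the groups compared, days 100 and 200 as separate groups, leaving out each library and a block by replicate letter. The block fits held day 0, day 21, day 45 and the knockout together, without the late mice. Correction for GC content and length, and fits with no knockout libraries or with only knockout C, were added after seeing the data. Of 18 correlations between same-letter deviations from the group means, 8 exceeded 0.1 (-0.45 to 0.50). All 3 letters exceeded 0.1 only between days 21 and 45 (A 0.27, B 0.24, C 0.50), so the letters were taken to pair these groups alone, on the data and not on the labels. Whether transcripts were counted by strand was not given in the sources used here. The limma procedure was tested on simulated data. Seed matches were searched in GENCODE transcripts on mm9 and microRNA sequences were taken from RefSeq.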

Additional observations from a re-analysis of the deposited data

Results flagged for a closer look

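Among the genes described, 4 differed between the germline knockout and day 45 after excision, 2 ways of losing miR-122, in a limma test of that difference itself. Of the 71 members and other pathway genes tested, 6 were called (8.45%), near the 9.44% of all tested genes, and the other two were Dnaja2 and Zcchc6, both lower in the knockout (adjusted p = 0.034 and 0.043). Xpo5 differed by -0.61 (adjusted p = 0.043), with knockout mice A and B below every other library and C closer to day 0. Zcchc11 differed by -1.26, with 1.54, 2.70 and 6.31 FPKM in knockout A, B and C and 7.98 to 9.40 at day 45. Papd4 differed by -0.59, with 2.92, 3.04 and 4.26 FPKM in the knockout and 5.52 to 5.72 at day 45. Hspa8 differed by -1.23, and here knockout C was the lowest of the 3. Knockout A and B differ from C by GC content across all genes, and after correction for GC content and length the differences were -0.33 for Xpo5 (adjusted p = 0.079), -0.12 for Papd4 (adjusted p = 0.53), -0.43 for Zcchc11 (adjusted p = 0.048) and -1.11 for Hspa8 (adjusted p = 0.0087). With knockout A and B not in the fit, where C is a group of 1 and is assumed to vary like the other groups, they were -0.27, -0.33, -0.42 and -1.77 in that order, with adjusted p of 0.45, 0.31, 0.39 and 8.3e-04.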

How the results depend on the processing

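Under the other settings Drosha kept its direction throughout and its call in all but 1 fit, and the calls of the members did not hold as widely. The other pathway calls, Drosha included, were kept in 183, lost in 66 and reversed in 3 refits under other settings, and kept in 260 and lost in 118 that left out 1 library. The cause of the changes below was not tested, and a group left with 1 library is assumed to vary like the others. The 9 members gave 1 call at day 45 but 0 with no filter, after median centring, after GC and length correction and with either replicate block, and 2 with no knockout libraries or only knockout C. At days 100 and 200 they gave 0 with a pseudocount of 0.1 or median centring and 3 with no knockout libraries or only knockout C. In the knockout they gave 2 after GC and length correction and 0 with only the 2 groups or only knockout C. Between day 45 and day 21 they gave 1 with no knockout libraries or only knockout C, and between the knockout and day 45 0 with median centring, only the 2 groups, either replicate block or only knockout C. An equal count could be another gene: after GC and length correction the call between the knockout and day 45 was Dicer1, higher (0.33, adjusted p = 0.041), and not Xpo5, and in the late mice Dicer1, lower (-0.27), and not Tnrc6c. Leaving out 1 library gave 0 to 0 members at day 21, 0 to 2 at day 45, 0 to 3 at days 100 and 200 and 0 to 7 in the knockout. It gave 0 to 1 between day 45 and day 21, 0 to 8 between the knockout and day 45 and 0 to 0 between the late mice and day 45. The 7 and 8 came without knockout C, when 7100 and 5919 of all 11376 tested genes were called in the same comparisons. With no knockout libraries 4349 of 11363 tested genes were called at day 45 and 5021 at days 100 and 200.

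Same-letter deviations went together in all 3 letters only between days 21 and 45, on the data and not on the labels. The replicate block was fitted without the late mice and gave unpaired groups the same letter effects. Its values for comparisons with day 0 or the knockout are therefore only descriptive. In limma with that block Tnrc6c at day 45 had an adjusted p of 0.057, Xpo5 between the knockout and day 45 one of 0.074 and Tarbp2 in the knockout one of 0.037. Genes called at day 21 numbered 865, and 467 with the replicate block, 1727 after GC and length correction, 1497 with only the 2 groups, 1921 with no knockout libraries and 1911 with only knockout C. Without a filter 5816 were called at days 100 and 200 in place of 3592. In the knockout 3833 became 1042 with only the 2 groups and 657 with only knockout C. Between day 45 and day 21 31 became 58 with the other pseudocount, 17 and 10 with the lower and no filter, 14 after centring, 3 with only the 2 groups, 1 with the replicate block, 8 with the block and GC correction, 770 with no knockout libraries and 762 with only knockout C. Between the knockout and day 45 1072 became 405 after centring, 551 after GC correction, 63 with only the 2 groups, 437 with the replicate block, 314 with block and GC correction and 280 with only knockout C. Between the late mice and day 45 25 became 2 with the other pseudocount, 126 and 228 with the lower and no filter, 41 after GC correction, 3 with only the 2 groups, 65 with no knockout libraries and 58 with only knockout C. Leaving out 1 library gave 241 to 2070, 1746 to 4448, 1569 to 5113, 1621 to 7100, 0 to 1046, 231 to 5919 and 1 to 115 genes in the order day 21, day 45, late, knockout, day 45 against day 21, knockout against day 45 and late against day 45. Median centring changed the split of higher and lower calls from 2688 and 339 to 1644 and 795 at day 45, from 3227 and 365 to 1785 and 993 at days 100 and 200, and from 137 and 935 to 186 and 219 between the knockout and day 45.

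Among single genes 44 values changed sign outside the fits that left out 1 library, 3 of them (2310021P13Rik) for a result that was called. After median centring, the log2 change was -0.025 for Dicer1 at day 21, and -0.22 for Dicer1, -0.032 for Dgcr8, -0.14 for Tnrc6b, -0.21 for Eif2c1 and -0.16 for Eif2c2 at day 45, and -0.29 for Dicer1, -0.12 for Xpo5, -0.14 for Tnrc6b and -0.0044 for Eif2c2 in the late mice. After correction for GC content and length, the log2 change was -0.14 for Dicer1, -0.0054 for Tnrc6b, -0.097 for Eif2c1 and -0.076 for Eif2c2 at day 21, and -0.18 for Dicer1, -0.047 for Dgcr8, -0.073 for Tnrc6b, -0.23 for Eif2c1, -0.18 for Eif2c2 and -0.016 for 2310021P13Rik at day 45, and -0.27 for Dicer1, -0.11 for Xpo5, -0.083 for Tnrc6b, -0.043 for Eif2c2 and -0.075 for 2310021P13Rik in the late mice, and 0.15 for Dicer1 in the knockout. With that correction and the replicate block together, the log2 change was -0.14 for Dicer1, -0.022 for Tnrc6b, -0.091 for Eif2c1 and -0.082 for Eif2c2 at day 21, and -0.17 for Dicer1, -0.086 for Dgcr8, -0.0017 for Tarbp2, -0.077 for Tnrc6b, -0.22 for Eif2c1, -0.17 for Eif2c2 and -0.012 for 2310021P13Rik at day 45, and 0.16 for Dicer1 in the knockout. With only knockout C, the log2 change was 0.26 for Dicer1, 0.042 for Dgcr8, 0.20 for Tnrc6a, 0.16 for Tnrc6b, 0.094 for Eif2c1 and 0.079 for Eif2c2 in the knockout. Over the fits that left out 1 library the following also crossed 0. The values ran at day 21 from -0.093 to 0.044 for Dgcr8, from -0.073 to 0.15 for Dicer1, from -0.023 to 0.18 for Eif2c1 and from -0.071 to 0.26 for Eif2c2. The values ran at day 45 from -0.094 to 0.14 for Dicer1, from -0.065 to 0.12 for Eif2c1, from -0.11 to 0.31 for Eif2c2 and from -0.016 to 0.26 for Tnrc6b. The values ran in the late mice from -0.17 to 0.26 for Dicer1 and from -0.054 to 0.45 for Tnrc6b. The values ran in the knockout from -0.48 to 6.7e-05 for Dicer1 and from -0.090 to 0.17 for Tnrc6c.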
